A study of Mus musculus with 2 samples.

Results

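The genes described here are the mouse collagen genes, taken as every gene whose symbol is Col, a number, the letter a and a number, with at least 20 UMIs (unique molecular identifiers, each counting 1 captured mRNA molecule) over 2 single-cell libraries. All 44 such symbols among the 32285 genes in the files passed this minimum. The question was which cells of the embryonic eye make each collagen mRNA, and how much of each is found in red blood cells, which make no collagen. Collagen UMIs in red blood cells, taken as cells with at least 10% of their UMIs from hemoglobin genes, serve here as a measure of free RNA, the RNA of broken cells that enters every droplet.

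The study performed 3′ single-cell RNA-seq on E17.5 mouse eye cups homozygous for humanized alleles of Myrf, which encodes a transcription factor of the retinal pigment epithelium (RPE). In both alleles human sequence replaces the last exon of the mouse gene. Myrf humWT/humWT was the control, and Myrf humdG/humdG also carried the C-terminal frameshift variant. Each genotype was pooled into 1 library, so replicates are lacking and the genotypes cannot be tested against each other. All ranges in parentheses are 95% intervals for the error of counting alone. The labels give 3 eye cups per pool without cornea, lens and optic nerve, whereas the methods of the study keep the cornea, and cells with the keratins Krt5, Krt12 and Krt15 were present in both libraries. A protocol text attached to both samples names Rx>cre and Myrf fl/fl mice, which their titles do not.

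The libraries held 129135207 UMIs in humWT and 114319529 in humdG, and 16166 and 18172 cells were kept, with medians of 3785 and 2625 UMIs. They shared 102 barcodes, 86 of them among the cells kept. Cells were clustered without the collagen genes, and clusters were called X-like from marker genes. Some clusters are given by number. Cluster 0, the largest with 4583 and 7868 cells, was led by Gphn, Sncg and Cdk8, and cluster 3 was led by histone genes. Cluster 6 was led by Spp1, Rgs5 and Mgp, with 8 mesenchyme and 6 mural markers raised, and cluster 9 by Acta2, Tagln and Postn. In cluster 15, 8 ganglion cell markers and 8 amacrine and horizontal cell markers were raised. Cluster 20 had 6 melanocyte and 5 RPE markers raised.

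Collagens are secreted proteins whose chains wind into a triple helix. The fibril-forming types build the rope-like fibers of sclera, tendon and cartilage, type IV builds the sheets of basement membranes, and smaller families coat fibrils, anchor epithelia or span the cell membrane. In the eye the RPE and the choroidal vessels border Bruch's membrane, and the sclera is mostly type I collagen.

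Type IV genes lie in head-to-head pairs, and promoter windows of the closest of these pairs are shown because both members of a pair had their highest level in the same cells. The sequences are RefSeq windows of GRCm38.p6, from 250 bases before to 50 bases after the start, on the strand of the gene. Capitals mark the bases spanned by the annotated starts of the gene and its partner. Col4a1 (minus strand, window chr8:11312777-11313076) and Col4a2 (plus strand, window chr8:11312555-11312854) overlap by 22 bases at their 5′ ends, and their windows share 78 bases. The starts of Col4a4 (minus strand, window chr1:82586800-82587099) and Col4a3 (plus strand) are separated by 71 bases.
Col4a1: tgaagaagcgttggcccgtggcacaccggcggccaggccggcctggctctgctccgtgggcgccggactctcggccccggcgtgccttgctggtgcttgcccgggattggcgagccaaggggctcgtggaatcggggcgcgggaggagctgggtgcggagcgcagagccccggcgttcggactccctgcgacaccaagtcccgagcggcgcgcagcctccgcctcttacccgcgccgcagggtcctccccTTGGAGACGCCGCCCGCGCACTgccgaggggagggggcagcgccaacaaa
Col4a2: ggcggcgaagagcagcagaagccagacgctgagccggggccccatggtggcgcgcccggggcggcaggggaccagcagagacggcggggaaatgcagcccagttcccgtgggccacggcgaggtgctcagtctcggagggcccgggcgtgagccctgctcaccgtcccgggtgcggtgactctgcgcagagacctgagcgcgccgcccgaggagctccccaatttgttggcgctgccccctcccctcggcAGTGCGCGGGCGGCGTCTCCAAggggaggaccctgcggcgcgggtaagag
Col4a4: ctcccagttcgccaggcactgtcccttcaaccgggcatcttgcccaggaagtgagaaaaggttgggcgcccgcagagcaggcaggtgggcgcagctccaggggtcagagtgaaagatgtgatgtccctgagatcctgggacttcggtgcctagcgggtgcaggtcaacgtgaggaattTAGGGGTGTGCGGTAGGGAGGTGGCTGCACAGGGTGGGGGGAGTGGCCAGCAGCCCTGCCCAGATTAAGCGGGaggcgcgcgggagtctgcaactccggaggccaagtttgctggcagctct
TATAAA, read on both strands, was found in none of these 3 windows and in 13.6% of all 32851 RefSeq windows of this length. CCAAT and GGGCGG each occurred in the Col4a1 and Col4a2 windows and not in the Col4a4 window, and in 37.4% and 35.7% of all windows. Of the 35 collagen genes with a window, 5 had TATAAA, 12 CCAAT and 22 GGGCGG.

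Collagen mRNA was abundant in red blood cells. In humWT, 562 red blood cells held 15355 collagen UMIs, which is 5382 CPM (counts scaled to 1000000 UMIs of those cells) or 27.3 UMIs per cell. In humdG, 424 red blood cells held 3935 collagen UMIs, which is 2109 CPM or 9.28 UMIs per cell. Both values lie below those of all cells kept, where collagens made up 17369.7 CPM in humWT and 8294 CPM in humdG. The 5 cells with the most collagen held 24.4% and 27.7% of the collagen UMIs of red blood cells. Of the red blood cells, 456 of 562 and 256 of 424 lay in the red blood cell cluster and 56 and 117 in cluster 0. Those of the red blood cell cluster alone held 3715 and 1296 CPM of collagen, and cells with at least 50% hemoglobin 2551 and 1233 CPM. At least 1 collagen UMI was found in 100% and 98.8% of red blood cells.

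The collagens of red blood cells were those of the whole library at a lower level. Col1a1, a chain of type I collagen, stood at 1411 CPM in red blood cells of humWT (1368 to 1455) and 557 CPM in those of humdG (524 to 592), and a UMI of it was found in 98.2% and 73.1% of these cells. Across the 44 genes, the rank correlation between red blood cells and all cells was 0.98 in humWT and 0.977 in humdG, a description over genes in cells that include the red blood cells. The median ratio of these levels was 0.331 and 0.268. Among collagens called in RPE-like cells the ratio in humWT was 0.871 for Col4a3, 0.762 for Col4a4, 0.75 for Col8a1, 0.807 for Col9a3, 0.568 for Col8a2 and 0.473 for Col18a1. In humdG the ratios of the same genes were 0.309, 0.355, 0.302, 0.247, 0.291 and 0.267. High ratios in humWT were not particular to these genes, since Col2a1, not called in RPE-like cells, had 0.685 in humWT and 0.27 in humdG. The spread over cells differed, however. In red blood cells of humWT, 49 Col4a3 UMIs lay in 2.85% of the cells and 542 Col8a1 UMIs in 31%. For Col9a3, 248 UMIs lay in 24.2%, and for Col2a1, 287 lay in 35.4%. In humdG, 9 Col4a3 UMIs lay in 2.12%. The humWT ratio of Col4a3 thus rests on few cells, and whether it measures free RNA was not tested.

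**Figure D1:**
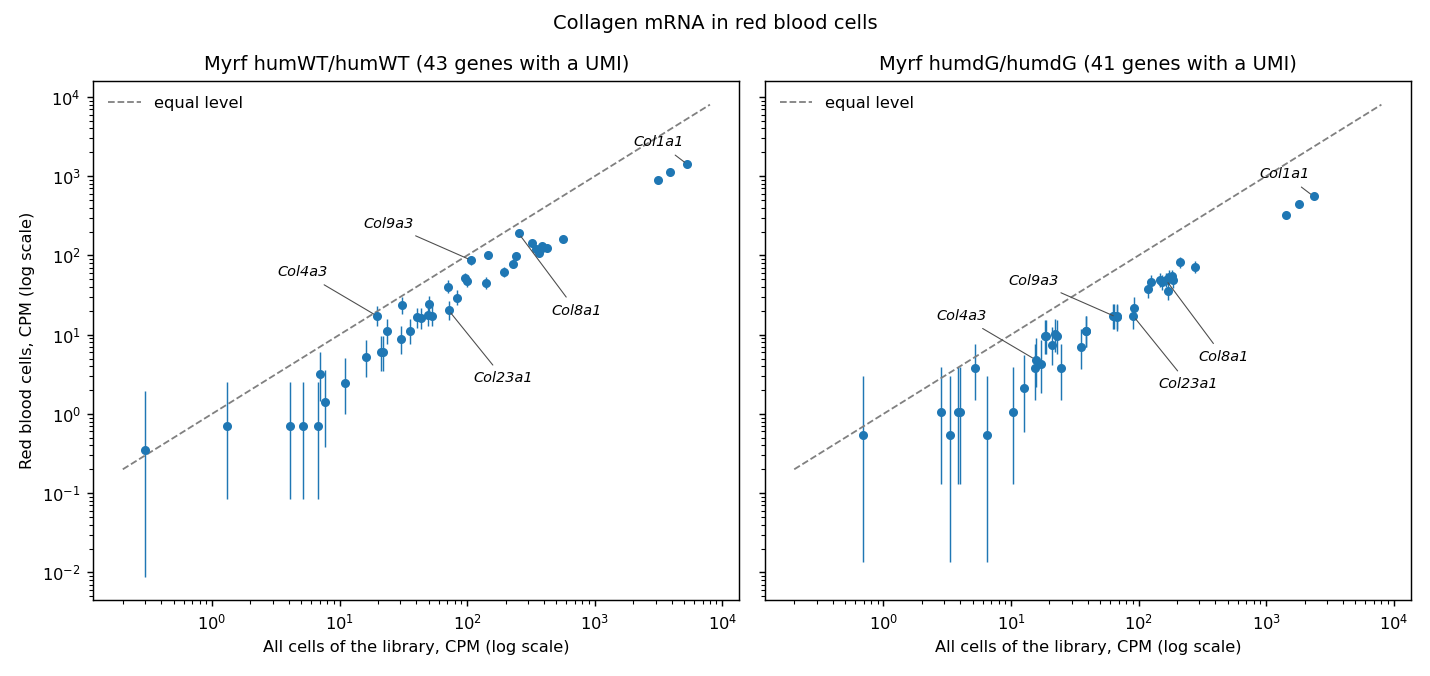
Level of each collagen gene in red blood cells (vertical axis) against all cells of the library (horizontal axis), in CPM on log scales, with 95% Poisson intervals and 1 panel per genotype, for genes with a UMI in red blood cells. Most points lie under the dashed line of equal level, and Col4a3, Col8a1 and Col9a3 lie nearer to it in humWT than in humdG.

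A class was called as producing a collagen when its CPM was at least 5 times the upper 95% Poisson bound of the red blood cell CPM, with at least 20 UMIs, in both libraries. By this rule 39 of the 44 collagens had at least 1 producing class among 20 classes, against 18.9% of the 21157 genes with at least 20 UMIs. This share and those below are not matched for abundance, since a gene with few UMIs cannot reach 20 in a class in each library. The calls made 69 pairs of gene and class in 13 classes. Of these collagens, 20 had 1 producing class, 10 had 2, 7 had 3 and 2 had 4. No collagen was called in 7 classes, against 1.4% of all genes in amacrine and horizontal-like, 0.534% in neurogenic-like, 1.04% in photoreceptor precursor-like and 3.97% in white blood cell-like cells, 0% in cluster 0, 0.0662% in cluster 3 and 1.41% in cluster 20. At such low shares a count of none among 44 collagens does not set collagens apart from all genes.

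The scale used for free RNA decides many of these calls. Hemoglobin takes up part of the UMIs of red blood cells. With hemoglobin left out of all totals 30 pairs over 28 collagens were called, whereas on UMIs per cell 130 pairs were. The share of all genes called was not taken on these scales. Of the 69 pairs, 22 were called under every alternative setting run for them, and a limit of 10 times alone left 22. Just inside the limit of 5 times were Col24a1 in tendon-like cells and Col3a1 in cluster 9. Each was at 5.1 times the upper bound in the library with the lower value. Just outside were Col14a1 in surface epithelium-like cells and Col1a2 in cluster 9, at 4.98 and 4.97 times.

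**Figure D2:**
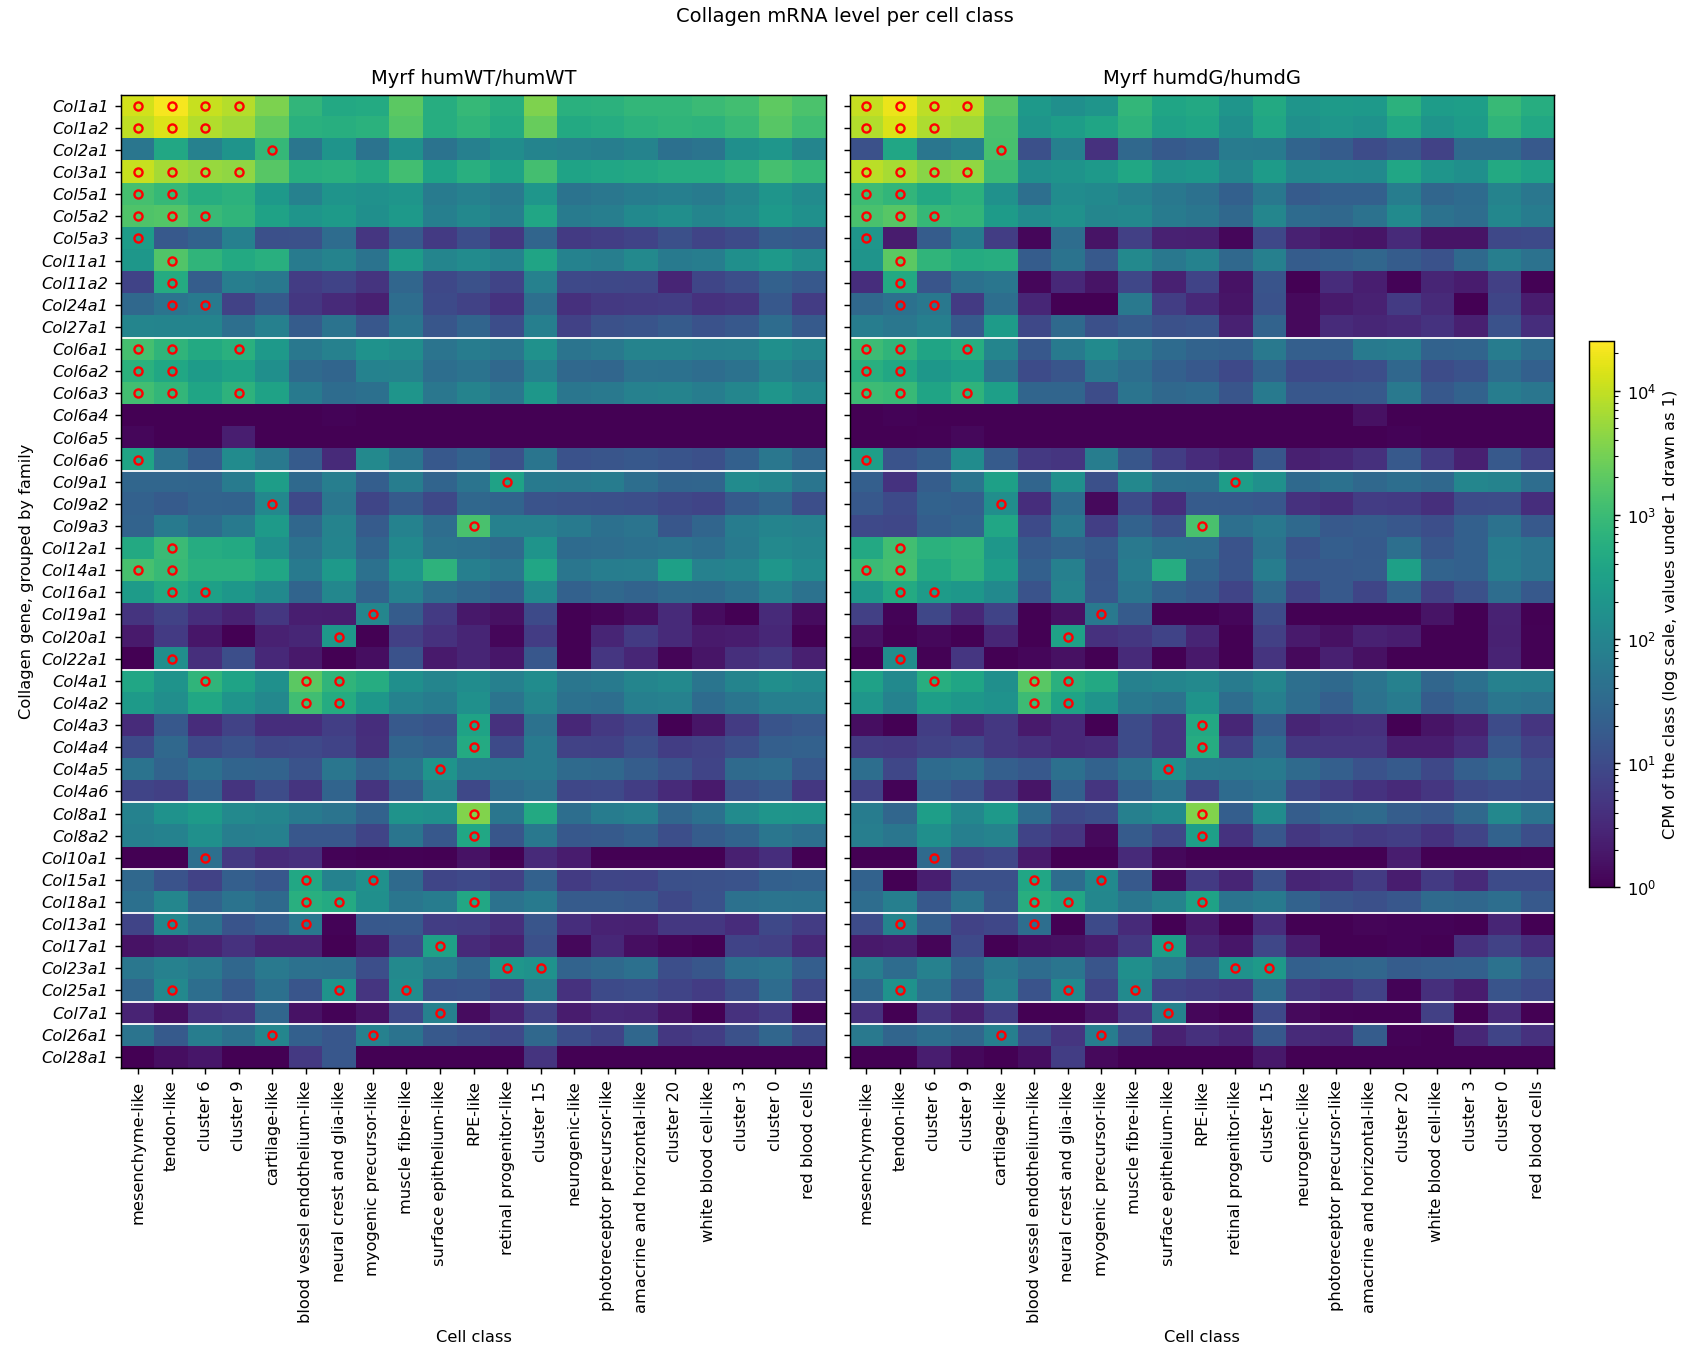
Level of the 44 collagen genes (vertical, grouped by family) in 20 cell classes and red blood cells (horizontal), in CPM of the class on a log colour scale, for each genotype. Red circles mark the 69 producing pairs, 17 of them in tendon-like cells and 11 in mesenchyme-like cells.

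Fibril-forming collagens were called mainly in connective tissue cells. Mesenchyme-like cells, tendon-like cells and clusters 6 and 9 held 78.2% of all collagen UMIs in humWT and 76.4% in humdG, in 18% and 9.1% of the cells. Tendon-like cells, led by Tnmd and Scx, were called for 17 of 44 collagens, against 1.18% of all genes. Mesenchyme-like cells were called for 11, against 1.66%, cluster 6 for 8, against 1.02%, and cluster 9 for 4, against 0.109%.

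Col1a1 reached 21572 CPM in humWT (21457 to 21687) and 18232 CPM in humdG (17956 to 18511) in tendon-like cells, or 15.3 and 32.7 times its red blood cell level. In mesenchyme-like cells it stood at 12745 and 10182 CPM, in cluster 6 at 10540.5 and 9283 CPM and in cluster 9 at 8046 and 8748 CPM. Col1a2, the partner chain in type I collagen, had the same order, with 14714 and 14091 CPM in tendon-like, 9316 and 7633 CPM in mesenchyme-like cells and 7862 and 7218 CPM in cluster 6. Tendon-like cells were few, 246 and 59, and 5 of them held 24.6% and 21% of the Col1a1 UMIs of the class.

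Col3a1, the chain of type III collagen, was instead highest in mesenchyme-like cells. It stood there at 10582 CPM in humWT and 8773 CPM in humdG, against 6390.0 and 6754 CPM in tendon-like cells, 5209 and 4202 CPM in cluster 6 and 4720.5 and 4884 CPM in cluster 9. Mesenchyme-like cells held 49.6% and 50.6% of all Col3a1 UMIs. Col3a1 and Col5a2 lie tail to tail on chromosome 1. Over the 20 classes their log2(CPM + 1) had a Pearson correlation of 0.967 in humWT and 0.953 in humdG, a description over classes that share library and free RNA. Such correlations were taken for neighbouring collagens only, so a link to position was not tested.

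The minor fibril-forming chains, which are built into larger fibrils, divided between the connective tissue classes. Col5a1 was called in mesenchyme-like cells, at 1252 and 1021 CPM, and in tendon-like cells, at 868 and 784 CPM. Col5a2 was called in tendon-like cells, at 1692 and 1818 CPM, in mesenchyme-like cells, at 1567 and 1347 CPM, and in cluster 6, at 968 and 889.9 CPM. Col5a3 was called in mesenchyme-like cells alone, which held 75.3% and 73.3% of its UMIs. It stood there at 271 CPM in humWT and 202 CPM in humdG, against 17.2 and 9.65 CPM in red blood cells. Col11a1 and Col11a2, known from cartilage fibrils, were called in tendon-like cells alone, Col11a1 at 1597 and 1938 CPM and Col11a2 at 515 and 474 CPM. For Col11a1, cluster 6 was just outside the limit, at 4.78 times the upper bound. Cluster 6 held 11571 and 7731 Col11a1 UMIs, against 10020 and 1771 in tendon-like cells. In cartilage-like cells, also not called for it, Col11a1 stood at 584 and 539 CPM. Col24a1 was called in cluster 6, at 65.4 and 58.7 CPM, and in tendon-like cells, at 48.6 and 43.8 CPM.

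Type VI collagens form beaded filaments that surround fibrils near the cell surface, and Col6a1, Col6a2, Col6a3 and Col6a6, 4 of the 6 genes, were highest in mesenchyme-like cells. There Col6a1 stood at 1258 CPM in humWT and 1027 CPM in humdG, Col6a2 at 653 and 595 CPM and Col6a3 at 1144 and 1055 CPM. In tendon-like cells Col6a1 stood at 762 and 767 CPM, Col6a2 at 418 and 430.1 CPM and Col6a3 at 816 and 916 CPM. Col6a1 and Col6a3 were also called in cluster 9, at 624 and 539.7 CPM and 697 and 738 CPM. Col6a1 and Col6a2 are neighbours on chromosome 10, with a correlation over classes of 0.982 in humWT and 0.97 in humdG. On chromosome 9 the correlations were lower, 0.553 and 0.706 for Col6a6 and Col6a5 and -0.0967 and 0.18 for Col6a5 and Col6a4. Col6a4 and Col6a5 had 64 and 81 UMIs over both libraries, so correlations that involve them rest on few counts per class. Col6a6 was called in mesenchyme-like cells alone, at 366 and 288 CPM, or 12.4 and 41.3 times red blood cells.

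Fibril-associated collagens sit on the surface of larger fibrils, and several were called in tendon-like cells. Col12a1, a collagen of dense connective tissue, stood there at 1009 CPM in humWT and 1156 CPM in humdG. Tendon-like cells held 6330 and 1056 Col12a1 UMIs. Classes not called for it held more, 7984 and 6698 in cluster 6 and 8194 and 3960 in mesenchyme-like cells. Col14a1 was called in mesenchyme-like cells, at 1305 and 1006 CPM, and in tendon-like cells, at 917 and 1269.6 CPM. Col16a1 was called in tendon-like cells, at 482 and 484 CPM, and in cluster 6, at 311 and 263 CPM. For Col16a1, mesenchyme-like cells were just outside the limit, at 4.83 times the upper bound. They held 4563 and 2018 of its UMIs, against 3025 and 442 in tendon-like cells. Col22a1, known from the junction of muscle and tendon, stood at 152 CPM in humWT (142 to 162) and 142 CPM in humdG (119 to 169) in tendon-like cells, against 2.45 and 1.07 CPM in red blood cells.

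Cartilage-like cells were 7.52% and 0.693% of the cells of humWT and humdG. They were called for Col2a1, Col9a2 and Col26a1, 3 of 44 collagens against 0.17% of all genes. Col2a1, the main collagen of cartilage fibrils, stood at 852 CPM in humWT (824 to 879.6) and 1311 CPM in humdG (1257 to 1366), or 8.46 and 76.4 times red blood cells. Cartilage-like cells held 20.7% and 32.8% of the Col2a1 UMIs. Col1a1, not called there, stood above Col2a1, at 3416 and 1831 CPM, or 2.42 and 3.29 times red blood cells. Col3a1, also not called there, stood at 1821 and 1043 CPM. In humdG 61.8% of the collagen UMIs of this class lay in 5 of 126 cells. Without the 5 cells of most collagen in each library, Col2a1 was at 872 CPM in humWT and 657 CPM in humdG, so that the order of the genotypes turned. Col9a2, whose product coats cartilage fibrils, went in the same way from 112 and 148 CPM to 112 and 73.7 CPM. Col26a1 stood at 103 and 78.1 CPM here and at 84.8 and 72.2 CPM in myogenic precursor-like cells. These classes held 443 and 134 and 411 and 168 of its UMIs. More lay in classes not called for it, 1138 and 408 in cluster 6 and 872 and 537 in mesenchyme-like cells. The cartilage marker Matn1 was at 10.3 CPM in humWT and had 0 UMIs in humdG. Acan, which encodes the main proteoglycan of cartilage, was at 194 and 296 CPM and without the same 5 cells at 198 and 118 CPM.

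Each head-to-head pair of type IV collagen had its highest CPM in a different class, though for Col4a6 in humdG the order was within the error of counting. Col4a1 and Col4a2, the chains of most basement membranes, were highest in blood vessel endothelium-like cells, led by Flt1, Cdh5 and Plvap. There Col4a1 stood at 1967 CPM in humWT (1936 to 1998) and 1884 CPM in humdG (1838 to 1931) and Col4a2 at 1115 and 1044 CPM, against 123 and 82 CPM and 78.9 and 45.6 CPM in red blood cells. Col4a1 was also called in cluster 6, at 759 and 565 CPM. In neural crest and glia-like cells, 50 and 39 cells, Col4a1 stood at 746 and 627 CPM and Col4a2 at 502 and 352 CPM. At a finer clustering (resolution 1) a mural-like class of 252 and 174 cells appeared, with Col4a1 at 2173 and 1830.3 CPM and Col4a2 at 1074 and 779 CPM. The pair, whose shared 5′ end is shown above, had a correlation over the 20 classes of 0.974 in humWT and 0.961 in humdG.

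Col4a3 and Col4a4, which assemble with Col4a5 in specialised basement membranes, were called in RPE-like cells alone. Col4a3 stood there at 355 CPM in humWT (337 to 374) and 455 CPM in humdG (429 to 483), against 17.2 and 4.82 CPM in red blood cells. Col4a4 stood at 498 CPM in humWT (477 to 519) and 528 CPM in humdG (499.6 to 557), against 23.5 and 7.5 CPM. RPE-like cells, 3.28% and 2.26% of the cells, held 63.5% and 67.2% of all Col4a3 UMIs and 56.9% and 57.6% of all Col4a4 UMIs. With each cell thinned to 1000 UMIs, a Col4a3 UMI was found in 16.3% and 21.2% of RPE-like cells and 0.673% and 0.627% of red blood cells, and unthinned in 44.2% and 45.5% of RPE-like cells. The pair had a correlation over classes of 0.958 in humWT and 0.918 in humdG.

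Col4a5 and Col4a6 were both highest in surface epithelium-like cells, led by Krt15 and Krt5. Col4a5 was called there, at 185 CPM in humWT (164 to 209) and 153 CPM in humdG (127 to 183). It stood at 70.8 and 61.6 CPM in RPE-like cells, where it was not called, against 16.5 and 11.3 CPM in red blood cells. Surface epithelium-like cells held 5.44% and 2.91% of all Col4a5 UMIs, from 263 and 122 UMIs. Retinal progenitor-like cells, not called for Col4a5, held 930 and 1507 of its UMIs. Col4a6, its partner at a distance of 1308 bases, was called in no class, with 93 and 47.7 CPM in surface epithelium-like cells, 10.7 and 3.13 times the upper bound. In humdG the interval of Col4a6 in these cells, 33.7 to 65.4 CPM from 38 UMIs, took in the 44.4 CPM of cluster 15.

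**Figure D3:**
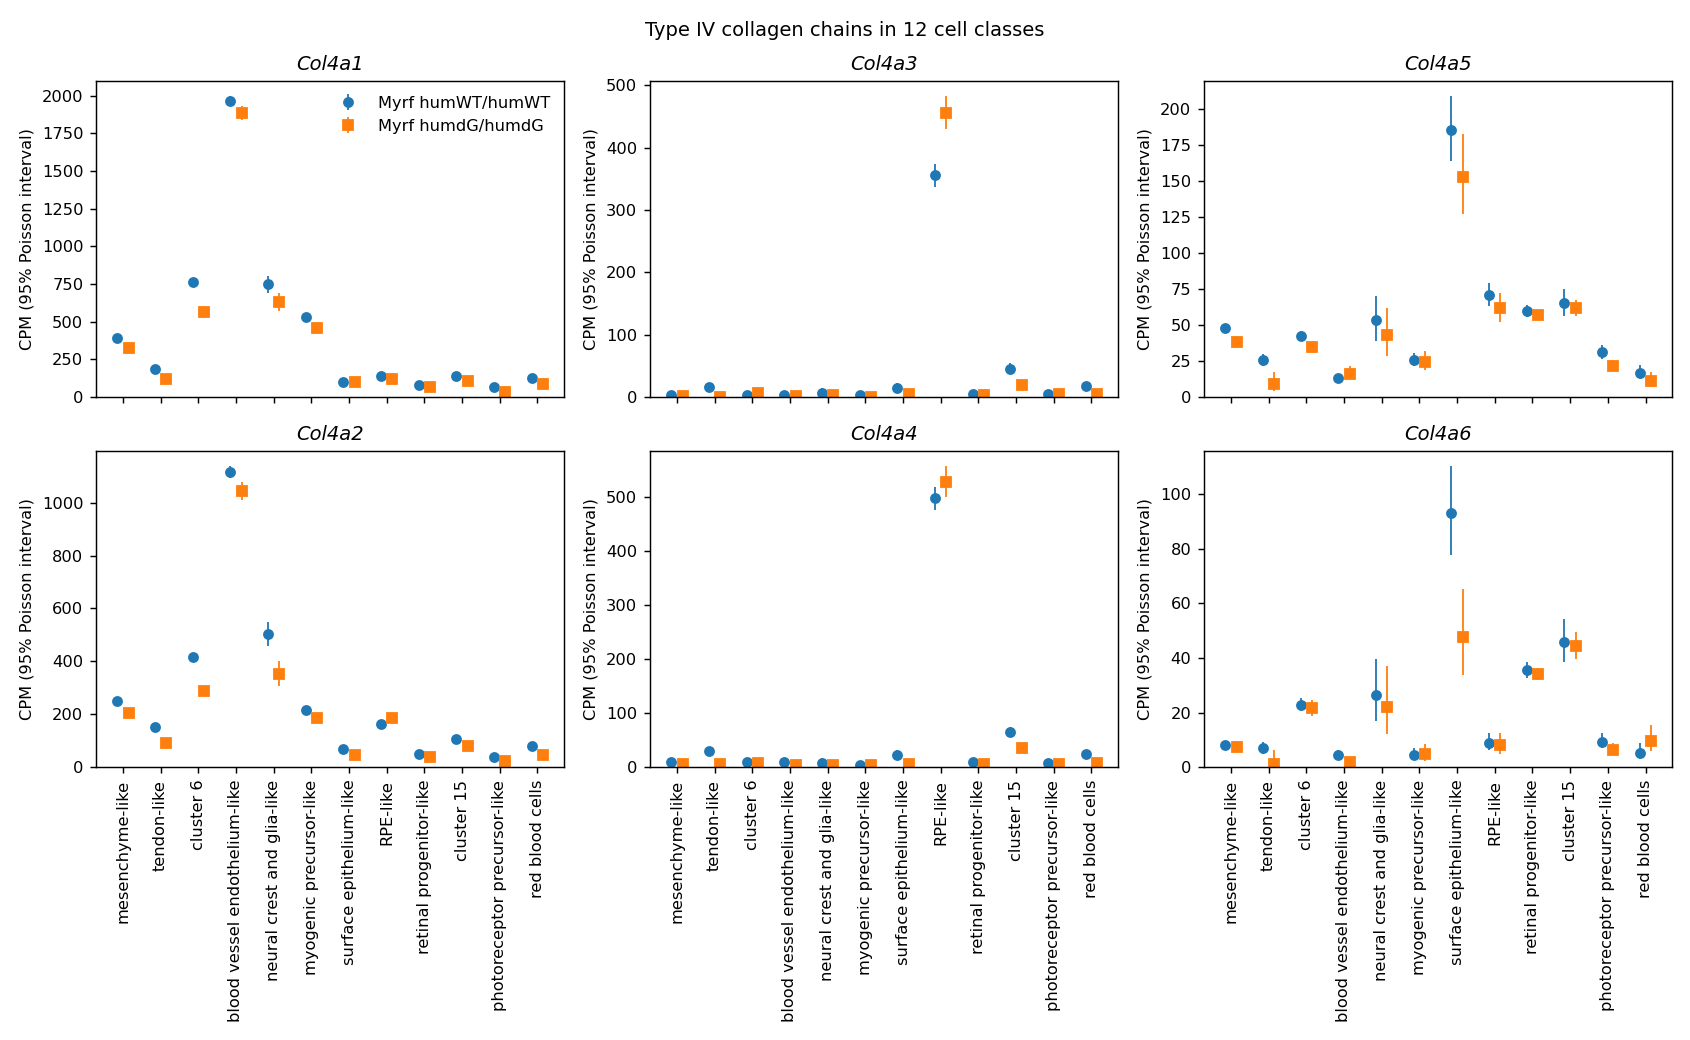
Level of the 6 type IV collagen chains (1 panel each, head-to-head partners above each other) in 11 cell classes and red blood cells (horizontal axis), in CPM with 95% Poisson intervals (vertical axis); circles are humWT and squares humdG. Among these, Col4a1 and Col4a2 are highest in endothelium-like cells, Col4a3 and Col4a4 in RPE-like cells, and Col4a5 and Col4a6 in surface epithelium-like cells. In humdG the interval of Col4a6 in surface epithelium-like cells takes in its level in cluster 15.

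RPE-like cells, led by Ttr, Ptgds and Slc16a8 in their larger cluster, were called for 6 collagens, against 2.13% of all genes. The most abundant was Col8a1, a short-chain network collagen of basement membranes such as Descemet's membrane, at 3645 CPM in humWT (3588 to 3703) and 3707 CPM in humdG (3631 to 3783), against 190.0 and 49.3 CPM in red blood cells. RPE-like cells held 50.7% and 52.2% of its UMIs. Its partner chain Col8a2 stood at 410.1 CPM in humWT (391 to 429.9) and 301 CPM in humdG (279 to 323). RPE-like cells held 20.3% and 17.9% of the Col8a2 UMIs, 1733 and 746. Cluster 6, not called for Col8a2, held 2453 and 1609. Col9a3, a fibril-associated chain known from cartilage, stood at 1379 and 1365 CPM, or 15.9 and 82.2 times red blood cells. Col9a1 and Col9a2, with which it is known to assemble, were not called in RPE-like cells and stood there at 49.7 and 42.7 CPM and 29.6 and 18.5 CPM. Col18a1, the basement membrane collagen that gives rise to endostatin, stood at 438 and 336 CPM, and RPE-like cells held 15.4% and 12% of its UMIs.

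The fibrillar collagens Col1a1, Col1a2, Col2a1 and Col3a1 were not called in RPE-like cells and on CPM stood near or below their red blood cell levels there. Col1a1 stood at 898 CPM in humWT (869 to 927) and 449 CPM in humdG (423 to 476) in RPE-like cells, which is 0.636 and 0.805 times red blood cells. The values were 0.679 and 0.885 times for Col1a2, 0.68 and 0.663 times for Col3a1 and 0.823 and 1.2 times for Col2a1. On UMIs per cell Col1a1 stood at 7.16 and 2.71 in RPE-like cells, against 7.16 and 2.45 in red blood cells. Col1a2 stood at 6.09 and 2.35 against 5.71 and 1.94, and Col3a1 at 4.83 and 1.31 against 4.52 and 1.44. Col2a1 stood at 0.66 and 0.124 against 0.511 and 0.0755. Red blood cells of a stricter gate held less collagen, as given above. The log2 ratio of humdG to humWT in RPE-like cells was -1.0 for Col1a1, -0.97 for Col1a2, -1.48 for Col3a1 and -2.01 for Col2a1. In red blood cells of the same libraries it was -1.34, -1.35, -1.45 and -2.55 in the same order. Over the 16 classes not called for Col1a1, its log2 ratio ran from -2.89 to -0.27 with a median of -1.46.

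Blood vessel endothelium-like cells were called for 5 collagens, against 2.64% of all genes. Beside Col4a1 and Col4a2 these were Col15a1 and Col18a1, the multiplexins of vessel basement membranes, and the transmembrane collagen Col13a1. Col15a1 stood at 438 CPM in humWT (424 to 453) and 403 CPM in humdG (382 to 425), with 57.8% and 57.1% of its UMIs in these cells. Col18a1 stood at 584 and 579.6 CPM here and at 481 and 439 CPM in neural crest and glia-like cells. Col13a1 was at 56.8 and 38.6 CPM here and at 109 and 95.2 CPM in tendon-like cells.

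Neural crest and glia-like cells were called for 5 collagens, against 1.02% of all genes. Col20a1, a fibril-associated collagen, stood at 218 CPM in humWT (188 to 250.4) and 327 CPM in humdG (284 to 374), against 0.701 and 1.07 CPM in red blood cells, and these cells held 40% and 50.4% of its UMIs. Col25a1, a transmembrane collagen of neurons and developing muscle, stood at 183 and 120.0 CPM, with 53.6% and 77.6% of the UMIs in 5 cells. It was also called in tendon-like cells, at 114 and 173 CPM, and in muscle fibre-like cells, at 139.5 and 129 CPM, as the 1 collagen of that class against 0.402% of all genes.

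Myogenic precursor-like cells, led by Myog, Msc and Fgfr4, were called for 3 collagens, against 0.666% of all genes. Col19a1, a fibril-associated collagen known from developing muscle, stood at 106 CPM in humWT (96.7 to 115) and 59.8 CPM in humdG (50.3 to 70.6), with 4 UMIs in the red blood cells of humWT and 0 in those of humdG. These cells held 55.5% and 28.7% of its UMIs. Col15a1 stood at 168 and 121 CPM. Col19a1 and Col9a1 are neighbours on chromosome 1, with a correlation over classes of -0.297 in humWT and 0.0358 in humdG.

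Surface epithelium-like cells were called for Col4a5, Col7a1 and Col17a1, 3 collagens against 2.34% of all genes. Col7a1 and Col17a1 belong to the structures that fasten an epithelium to its basement membrane. Col17a1, the transmembrane collagen of hemidesmosomes, stood at 328 CPM in humWT (299 to 359.6) and 279.6 CPM in humdG (244 to 319), or 104 and 74.5 times red blood cells. Col7a1, the collagen of anchoring fibrils, stood at 86 CPM in humWT (71.4 to 103) and 94.1 CPM in humdG (74 to 118), from 122 and 75 UMIs.

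Within the retina, progenitor-like cells were called for 2 collagens, against 0.406% of all genes. Col9a1, a fibril-associated chain of cartilage and vitreous, stood at 342 CPM in humWT (333 to 351) and 286 CPM in humdG (279 to 292), with 46.7% and 59.4% of its UMIs in these cells. Cartilage-like cells were not called for Col9a1 but held 279 and 314 CPM of it, the highest level in humdG. Without the 5 cells of most collagen in each library, the values in cartilage-like cells were 285 and 187 CPM. Col23a1, a transmembrane collagen, stood at 206 and 173 CPM in progenitor-like cells and at 173 and 253 CPM in cluster 15. It was the 1 collagen called in cluster 15, against 3.61% of all genes.

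Col10a1, the short-chain collagen of hypertrophic cartilage, was called in cluster 6, which held 77% and 80.4% of its UMIs. It stood there at 40.6 CPM in humWT (37.4 to 43.9) and 33.3 CPM in humdG (29.9 to 37). In the mural-like class of the finer clustering it was at 28.6 and 42.9 CPM, from 76 and 71 UMIs.

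The 5 collagens called in no class were Col4a6, Col6a4, Col6a5, Col27a1 and Col28a1. Col6a4 and Col6a5 had 64 and 81 UMIs over both libraries, and a producing class was not detectable at this depth. Col28a1 had 238 UMIs and among the 20 classes was highest in neural crest and glia-like cells, at 15.5 and 6.31 CPM from 14 and 4 UMIs. In the mural-like class of the finer clustering Col28a1 was at 7.89 and 10.9 CPM, from 21 and 18 UMIs. Col27a1, a fibril-forming chain of cartilage, had 9050 UMIs. Its highest level was 98.5 CPM in mesenchyme-like cells of humWT, 4.26 times the upper bound. In humdG it was 255 CPM in cartilage-like cells, 33 times the upper bound. In that class and library 5 of 126 cells held 61.8% of all collagen UMIs.

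The mix of collagens was set against that of red blood cells in classes with and without a call. The share of collagen UMIs that would have to move to another gene to match red blood cells of the same library had a median over the 7 classes without a call of 7.57% in humWT and 14% in humdG. It was 5.17% and 6.41% in cluster 0. Classes with calls overlapped with these values, with 12% and 13.7% in cluster 9 and 13.8% and 15% in cluster 6, as did the whole libraries with 8.09% and 5.9%, so the measure does not set apart classes without a call. In RPE-like cells it was 57.8% and 72.8%, and over the 38 collagens not called there 9.36% and 17.1%. For each Col1a1 UMI, red blood cells held 0.797 and 0.789 Col1a2 UMIs and photoreceptor precursor-like cells 0.802 and 0.821. In myogenic precursor-like cells, not called for type I collagen, the values were 1.33 and 1.94.

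The genotypes were compared in the classes called for each collagen. Of the 69 producing pairs, all with at least 100 UMIs over both libraries, none was 2-fold higher or lower in humdG. Over the 13 classes with a call, 2.62% to 16.1% of all genes with at least 20 UMIs in the class were 2-fold lower and 1.48% to 16.3% higher. These genes needed fewer UMIs than the pairs and no call, so the shares are not a matched background. The log2 ratios of the pairs ran from -0.82 to 0.62 with a median of -0.13, and 48 were below 0. A call in both libraries holds down large ratios. Where humWT alone made the calls 1 of 73 pairs was 2-fold lower, and where humdG alone made them 1 of 112 was lower and 2 higher, with log2 ratios up to 1.63. With free RNA per cell subtracted, 1 of the 69 pairs was lower, at -1.77. Shares of all genes were not taken under these alternatives. In red blood cells 26 of 34 collagens with at least 20 UMIs were at least 2-fold lower in humdG, against 8.24% of all genes, with a median log2 ratio of -1.35 (all genes 0.15). None of them was 2-fold higher, against 8.87% of all genes.

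Called and other collagens were also set side by side within classes, though the split depends on the ratios themselves. A call demands a level well above red blood cells in each library, which holds down large ratios. The others have no such limit, needed only 20 UMIs, and include collagens near the red blood cell level, itself lower in humdG. A gap between the 2 medians can thus follow from the rule, and its cause was not tested. In RPE-like cells the 6 collagens called had log2 ratios around a median of 0.0049 and the 30 others -0.94 (all genes -0.058), and 13 of 36 were at least 2-fold lower against 5.21% of all genes. In tendon-like cells the 17 called had a median of 0.011 and the 21 others -1.74 (all genes -0.26), and 13 of 38 were lower against 16.1%. In endothelium-like cells the medians were -0.095 and -1.23 (all genes -0.023), and 24 of 41 were lower against 4.34%. Mesenchyme-like cells had medians of -0.29 for the 11 called and -0.25 for the 30 others (all genes -0.082), and 4 of 41 were lower against 2.69%. In cluster 6 the medians were -0.21 and -0.29 (all genes -0.085) and in cluster 9 0.066 and -0.13 (all genes 0.13). The pools differed in makeup as well, with mesenchyme-like cells at 6.85% and 2.82% and tendon-like cells at 1.52% and 0.325% of the cells of humWT and humdG. In RPE-like, tendon-like, endothelium-like and mesenchyme-like cells no collagen was 2-fold higher in humdG, against 2.72%, 1.73%, 2.38% and 1.65% of all genes in the same order. At such low shares a count of none among 36 to 41 collagens does not set collagens apart from all genes. Genotype, the makeup of a pool and the breakage of cells cannot be told apart with 1 library each.

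**Figure D4:**
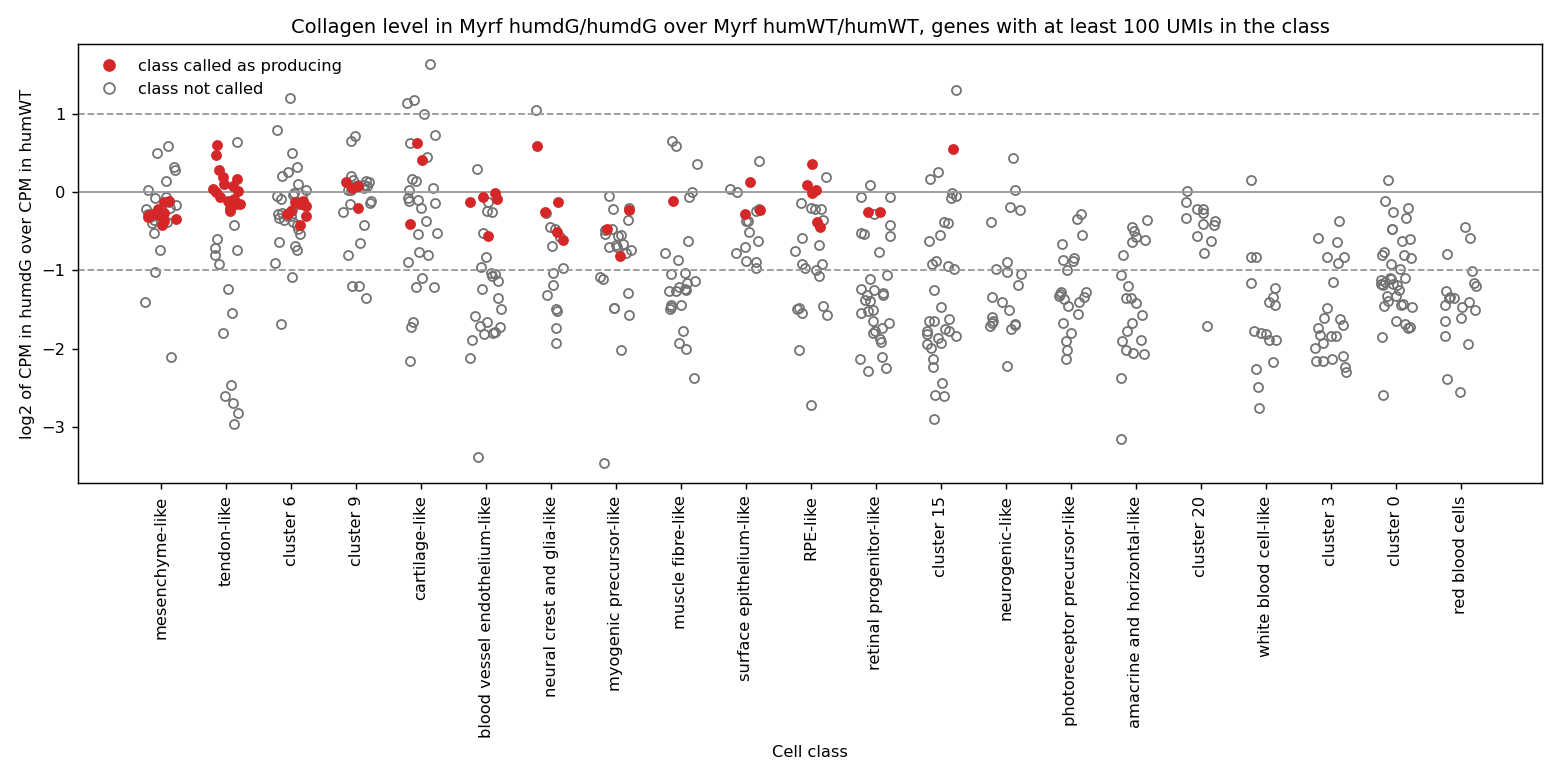
Log2 ratio of CPM in humdG to CPM in humWT (vertical axis) for each collagen with at least 100 UMIs in a class, by cell class and in red blood cells (horizontal axis); filled points are producing pairs and open points the others. All filled points lie between the dashed lines of 2-fold difference, from -0.82 to 0.62.

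Among the producing pairs, Col19a1 in myogenic precursor-like cells had the lowest log2 ratio, -0.82 (-1.10 to -0.55). Col20a1 in neural crest and glia-like cells had 0.59 (0.30 to 0.87). In these classes 5 cells held 20.5% and 42.4% of the Col19a1 UMIs and 44.2% and 43% of the Col20a1 UMIs. In RPE-like cells Col4a3 had 0.36 (0.25 to 0.47), Col8a2 -0.45 (-0.57 to -0.32) and Col18a1 -0.38 (-0.50 to -0.26), whereas Col8a1 had 0.024 (-0.013 to 0.062) and Col9a3 -0.014 (-0.076 to 0.047). In RPE-like cells of humdG, 5 cells held 28.4% of the Col4a3, 28.6% of the Col8a2 and 23.4% of the Col18a1 UMIs. On UMIs per cell the direction turned for Col4a3, at -0.043, and the ratio was -0.38 for Col8a1 and -0.42 for Col9a3. The highest ratio, 0.62 for Col2a1 in cartilage-like cells, was -0.41 without the 5 cells of most collagen in each library.

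The enzymes and helpers that build collagen were called mainly in the same connective tissue classes. Of 35 genes for hydroxylation, glycosylation, folding, export, processing and crosslinking of collagen, mesenchyme-like cells were called for 15, tendon-like cells for 10 and cluster 6 for 8, against 1.66%, 1.18% and 1.02% of all genes. With hemoglobin left out of the totals, 2 were called in mesenchyme-like and 2 in tendon-like cells, and the share of all genes was not taken. RPE-like, endothelium-like, cartilage-like, surface epithelium-like and retinal progenitor-like cells were called for none of the list, against 2.13%, 2.64%, 0.17%, 2.34% and 0.406% of all genes, shares at which 35 genes would hold fewer than 1 call. Serpinh1, the collagen chaperone, stood at 794 and 667 CPM in mesenchyme-like and 243 and 265 CPM in RPE-like cells, against 124 and 73.4 CPM in red blood cells. Sparc, a collagen-binding protein and the most abundant of the list, stood at 4605 and 4243 CPM in tendon-like and 1462 and 1396 CPM in RPE-like cells. Lox, which crosslinks fibrils, was called in mesenchyme-like cells, at 436 and 333 CPM. Tll1, a protease that trims collagen, was called in amacrine and horizontal-like cells, at 115 and 102 CPM, and in cluster 15. Loxl4 was the lowest of the list, with 131 UMIs over both libraries.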

How the data were processed

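The deposited files hold raw UMI counts per gene and barcode, which the authors made with Cell Ranger 7.1.0 against mm10, per the submitters' processing notes, which also name Seurat 4.1.1. Here a barcode needed more than 500 genes and a mitochondrial share under 15%, and the 5% with the highest Scrublet scores (scanpy 1.11.5) were removed, since Scrublet's own threshold called 1 and 0 doublets. Cells were integrated and clustered in Seurat 5.3.0 (2000 variable genes without collagens, 20 dimensions, resolution 0.5), and a class needed at least 3 raised markers. Red blood cells were set apart first. UMIs were summed per class and library. Intervals are exact Poisson for CPM and exact conditional binomial for ratios. In 3′ counting each transcript gives 1 tag, so CPM was not divided by length. The members, lists and thresholds were chosen with earlier results of these data known. Every collagen with a producing class is named, and for the biosynthesis list the genes with the highest and lowest level; Serpinh1, Lox and Tll1 were chosen after their values were seen. RefSeq windows were found for 35 of 44 genes.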

Additional observations from a re-analysis of the deposited data

Results flagged for a closer look

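For 7 collagens the ratio of humdG to humWT lay above 0 in a producing class and below 0 in another, with counting intervals that leave out 0 on each side. With 1 library per genotype these differences between classes were not tested. The log2 ratio of Col1a1 was 0.12 in cluster 9, against -0.18 in cluster 6, -0.32 in mesenchyme-like and -0.24 in tendon-like cells. Col3a1 had 0.049 in cluster 9 and 0.080 in tendon-like cells, against -0.31 in cluster 6 and -0.27 in mesenchyme-like cells. Col5a2 had 0.10 in tendon-like cells, against -0.12 in cluster 6 and -0.22 in mesenchyme-like cells. Col6a3 had 0.17 in tendon-like and -0.12 in mesenchyme-like cells. Col14a1 had 0.47 in tendon-like and -0.37 in mesenchyme-like cells. Col23a1 had 0.55 in cluster 15 and -0.26 in retinal progenitor-like cells. Col25a1 had 0.60 in tendon-like and -0.61 in neural crest and glia-like cells. Several of these directions turned with the scale or the clustering. On UMIs per cell the ratio in cluster 9 was -0.28 for Col1a1 and -0.36 for Col3a1. In tendon-like cells it was -0.64 for Col3a1, -0.62 for Col5a2 and -0.55 for Col6a3 on that scale. It was -0.25 for Col14a1 and -0.12 for Col25a1 there, whereas Col23a1 in cluster 15 stayed above 0, at 1.25. Without doublet removal the ratio in tendon-like cells was -0.12 for Col3a1, -0.31 for Col5a2, 0.021 for Col6a3, 0.087 for Col14a1 and -0.33 for Col25a1. At resolution 1 it was -0.16 for Col5a2 and -0.15 for Col25a1 in tendon-like cells, and -0.30 for Col23a1 in the ganglion cell class of that clustering, where Col23a1 was not called.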

How the results depend on the processing

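No paired analysis was possible because each genotype has 1 library. The collagen level of red blood cells, 5382 and 2109 (ratio 0.392) CPM in humWT and humdG, was 5852 and 2355 CPM with at least 5% hemoglobin, 3965 and 1662 (ratio 0.419) with 20%, 2551 and 1233 (ratio 0.483) with 50%, 9410.2 and 3820.5 (ratio 0.406) without hemoglobin UMIs, and 27.3 and 9.28 (ratio 0.34) on UMIs per cell. Without doublet removal the humdG level was 2305 CPM and the ratio 0.423. In alternatives chosen after seeing the data, it was 4212 and 1579 (ratio 0.375) CPM without 5 red blood cells of each library and 3715 and 1296 (ratio 0.349) for red blood cells of the red blood cell cluster. The 69 producing pairs became 105 with the 50% gate, 30 without hemoglobin, 130 on UMIs per cell, 150 at 2 times, 22 (over 22 collagens) at 10 times and, chosen after seeing the data, 112 when called in humdG alone. Biosynthesis genes called in tendon-like cells, 10, became 16 with the 50% gate, 2 without hemoglobin, 29 on UMIs per cell and 6 without doublet removal, and those in mesenchyme-like cells, 15, became 2 without hemoglobin and 28 on UMIs per cell. The median log2 ratio of producing pairs, -0.13, was -0.36 on UMIs per cell, -0.27 without doublet removal and -0.053 scaled by the median ratio of all genes. The cause was not tested. Of the 69 pairs, 22 were called in every alternative run for them and 47 were lost in at least 1. All 47 were lost at 10 times. On UMIs per cell 3 pairs were 2-fold lower and 4 2-fold higher in humdG, and without doublet removal 2 were lower. The share of all genes called or past 2-fold was not taken under the alternatives, so these counts have no background. On UMIs per cell every gene moves with the depth of a class. Cartilage-like cells held 4290046 UMIs in 1216 cells of humWT and 1715726 in 126 cells of humdG.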
